A study of Mus musculus with 10 samples.

Results

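The genes that copy DNA and divide the cell form a module of 59 named genes here, taken by gene symbol from a deposited table of 15472 genes measured in whole mouse inner ears. All 59 were listed, 26 with roles before and during DNA synthesis (the replication genes) and 33 with roles in mitosis (the mitosis genes). The ears came from embryos at E16.5 on the C57BL/6 strain, and the study compared 5 wild-type samples (WT, genotype +/+) with 5 samples homozygous for nmf219, an allele of Tbx1, the gene of a T-box transcription factor of the developing ear. No further allele, transgene or treatment is named in the labels. The labels do not say whether a sample is 1 animal, 1 ear or a pool, so every p-value reflects the spread among samples alone, which may be technical. Tissue was frozen whole, so each value is a mixture of sensory epithelium, ganglion, mesenchyme, capsule, blood and any muscle or brain carried along.

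A dividing cell loads the MCM helicase onto its origins in G1, fires it at the start of S phase with E2F-driven cyclin E, copies its DNA with polymerases held by PCNA, and then makes the kinases, kinesins and checkpoint proteins of mitosis under the transcription factors FOXM1 and B-MYB. E2F sites are known from the promoters of S phase genes, and the cell cycle homology region (CHR), bound by the DREAM and MuvB complexes and often paired with CCAAT boxes, from those of mitotic genes. In the inner ear of this age the precursors of cochlear hair cells have largely left the cell cycle under the CDK inhibitor p27, the product of Cdkn1b, while mesenchyme and other tissue still divide. Hbb-y, the embryonic beta globin of primitive red cells, is replaced by adult beta globins during gestation, and its level served here as an index of maturity, an index that also depends on how much blood and which red cells a sample holds.

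Promoter sequence was available in RefSeq (GRCm38.p6) for 48 of the 59 genes. The stretches below run from 170 bases before to 30 bases after the transcription start of the first RefSeq entry, on the gene's strand. Mcm5 and Cdc6 are shown among the replication genes, and Ube2c and Kif4 among the mitosis genes. They had the steepest relation to Hbb-y of the genes with an entry. Mcm5 is at chr8:75109339-75109538, Cdc6 at chr11:98907981-98908180, Ube2c at chr2:164769759-164769958 and Kif4 at chrX:100625895-100626094, all on the plus strand. The Cdc6 and Kif4 stretches begin after the deposited gene starts, 98907801 and 100625737, so their positions hold for the RefSeq start used. Capitals mark matches on either strand to an E2F site (TTTGGCGC, TTTCCCGC, TTTGCCGC or TTTCGCGC), to a CHR element (TTTGAA or TTCGAA) or to a CCAAT box (CCAAT).
Mcm5: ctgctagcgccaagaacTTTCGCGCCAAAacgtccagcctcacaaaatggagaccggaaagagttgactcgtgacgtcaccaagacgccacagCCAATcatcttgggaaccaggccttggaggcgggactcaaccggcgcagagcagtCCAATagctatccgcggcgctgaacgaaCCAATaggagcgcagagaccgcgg
Cdc6: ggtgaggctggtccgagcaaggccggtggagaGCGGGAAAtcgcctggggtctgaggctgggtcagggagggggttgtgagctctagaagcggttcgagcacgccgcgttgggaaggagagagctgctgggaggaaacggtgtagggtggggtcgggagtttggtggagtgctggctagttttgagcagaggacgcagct
Ube2c: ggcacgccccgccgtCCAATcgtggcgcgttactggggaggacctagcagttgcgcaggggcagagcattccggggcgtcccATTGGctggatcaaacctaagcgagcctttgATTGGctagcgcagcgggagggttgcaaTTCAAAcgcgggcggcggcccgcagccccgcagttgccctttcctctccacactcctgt
Kif4: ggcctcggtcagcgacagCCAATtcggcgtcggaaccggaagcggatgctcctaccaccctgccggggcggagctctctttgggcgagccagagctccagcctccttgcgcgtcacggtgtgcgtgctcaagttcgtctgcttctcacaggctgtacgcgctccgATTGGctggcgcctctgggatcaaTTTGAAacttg
The Mcm5 stretch held 2 E2F matches that overlap on opposite strands, the earlier starting at position -153 from the start site, and 3 CCAAT matches. The Cdc6 stretch held 1 E2F match. The Ube2c stretch held 1 CHR match starting at -29, and the Kif4 stretch 1 CHR match starting at 19, each with CCAAT matches upstream. A match describes the letters and not a bound site.

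Over the whole RefSeq window, 250 bases before to 50 bases after the start, the matches differed between the phases. An E2F match was present in 10 of 21 replication genes (47.6%), in 1 of 27 mitosis genes (3.7%, Cdk1) and in 2.6% of all 27025 genes with a promoter entry. A gene with several entries counted once, with a match in any of them. A CHR match was present in 21 of 27 mitosis genes (77.8%), in 4 of 21 replication genes (19.0%) and in 21.7% of all genes with an entry. Both a CHR and a CCAAT match were present in 19 of 27 mitosis genes (70.4%) against 9.65% of all genes with an entry. These shares are descriptions, and no test was made of them.

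**Figure D1:**
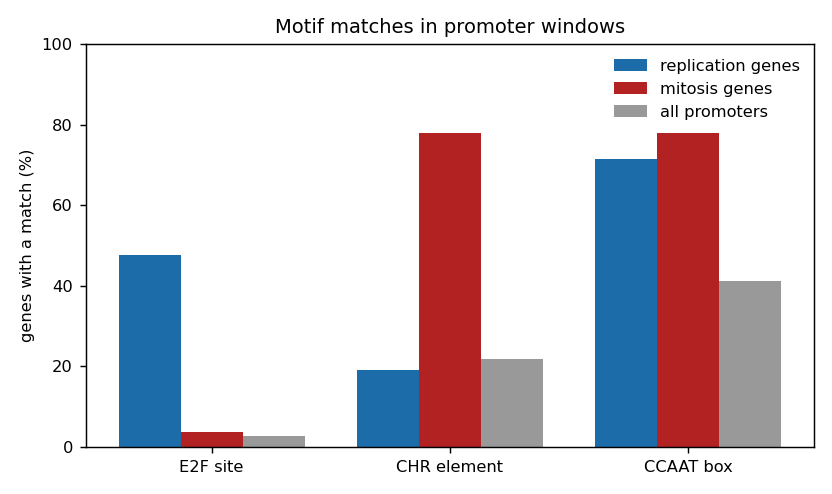
Share of genes (vertical axis, percent) whose 300-base promoter window holds an E2F, CHR or CCAAT match. Bars are for 21 replication genes (blue), 27 mitosis genes (red) and all 27025 genes with a promoter entry (grey, labelled all promoters). E2F matches are frequent in replication genes (47.6%) and CHR matches in mitosis genes (77.8%).

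All values below are the deposited normalized values, which are close to CPM. Depth over the listed genes was 31244799 to 41875972 reads in the WT libraries and 35293445 to 40942278 in the nmf219 libraries, and 3 reads were worth 0.0716 to 0.0952, far below any gene of the module. Changes were tested with limma on log2(value + 1) across the whole table, and a call means a Benjamini-Hochberg adjusted p under 0.05. Tbx1 RNA averaged 24.3 ± 4.08 (SD) over the WT libraries and 25.2 ± 2.02 (SD) over the mutants. The 10 inner ear markers in the lists were all above 0 in every library, with a summed value of 2284 to 2704 in WT and 2362 to 2779 in nmf219. Hbb-y measured 11.4, 15.8, 20.5, 44.4 and 3.10 across WT replicates 1 to 5 and 6.15, 4.28, 3.66, 4.15 and 33.0 across nmf219 replicates 1 to 5. WT replicate 4 and nmf219 replicate 5 were the high libraries, WT replicate 5 was the lowest, and the genotypes overlapped (exact permutation test of log2 values, two-sided, p = 0.238, where 5 against 5 cannot go below 0.00794).

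The module was expressed throughout, and its members kept widely different levels. Per kilobase of exon the mean value was highest for Pcna, the sliding clamp of the polymerases, at 45.3, and for Mki67, which coats mitotic chromosomes, at 36.9. Top2a, the topoisomerase that untangles sister chromatids, followed at 31.6 per kilobase. The lowest were Mcm10, a factor that activates the helicase, at 2.09 and Cdc25c, a phosphatase that switches on CDK1, at 2.38. The median was 6.71 per kilobase over the replication genes and 9.80 over the mitosis genes.

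No member of the module differed between the genotypes beyond the spread between libraries, although almost all had a slightly lower mean in nmf219. The limma test called 0 of 59 members, against 13 of 15472 genes in all (0.084%), of which 11 were lower in nmf219 (0.0711%), and 0 members were at an unadjusted p under 0.05, against 7.11% of all genes. In 57 of 59 members the mean of log2(value + 1) was lower in nmf219, against 53.1% of all genes, and the median log2 fold change was -0.13 (range -0.20 to 0.05) against -0.01 over all genes. In a bulk sample of this kind, fewer cells of a type and less RNA per cell cannot be told apart. Members vary together across libraries, so 57 lower means are not 57 separate observations. The ranges of the genotypes overlapped for all 59 members, where 1.17% of all genes had separate ranges.

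Other RNA also had different means in the genotypes in the same libraries, though none of the markers below was called. Markers of 1 list can vary together, so their counts are not separate observations. All 17 skeletal muscle markers had a higher mean in nmf219, with a median log2 fold change of 1.66, and 17 were at an unadjusted p under 0.05, though 0 passed limma's adjusted threshold. Their summed value was 216 to 2665 over the WT libraries and 1112 to 4406 over the mutants. Of 8 brain markers 7 had a lower mean in nmf219 and 4 were at an unadjusted p under 0.05, with 0 called and summed values of 373 to 389 in WT and 337 to 371 in nmf219. Among all genes 53.1% had a lower mean in nmf219, 7.11% were at an unadjusted p under 0.05 and 0.084% were called. Xist, the RNA of the inactive X chromosome in female cells, measured 3785, 3526, 15.7, 0.668 and 2.42 across WT replicates 1 to 5 and 2555, 3481, 2879, 3216 and 3096 across nmf219 replicates 1 to 5. WT replicates 3 to 5 were low and every mutant library was high, so sex, as Xist marks it, was unbalanced between the genotypes. With the muscle list as a covariate the median over the module was -0.10, and with Xist it was -0.11. Limma called 0 members in either fit, against 4 of 15472 genes with the muscle list and 2 with Xist. The part of brain RNA in the difference was not tested.

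Mki67 measured 387, 410, 408, 441 and 302 across WT replicates 1 to 5 and 348, 348, 314, 365 and 392 across nmf219 replicates 1 to 5. WT replicate 5 lay below every mutant library WT replicates 2 to 4 lay above every mutant library, and WT replicate 1 fell between nmf219 replicates 4 and 5. The means were 390 ± 52.6 and 353 ± 28.6 (SD, n = 5 each), and the log2 fold change between them, -0.13 ± 0.09 (SE), did not pass (limma adjusted p = 0.738). The replication genes had a median log2 fold change of -0.09, with 24 of 26 lower, and the mitosis genes one of -0.15, with 33 of 33 lower. Cdt1, the loader of the MCM helicase, at 0.02, and E2f2, an activating E2F, at 0.05, were the members with a higher mean in nmf219, and neither passed (limma adjusted p = 0.958 and 0.850). The largest difference was that of Cdc25c, at -0.20 ± 0.10 (SE; limma adjusted p = 0.685).

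The size of the genotype difference depended on single libraries. Without WT replicate 4 the median over the module was -0.07, and without WT replicate 5 it was -0.21. Without WT replicate 5, 0 members passed limma's adjusted threshold, against 14 of 15472 genes. There 39 members were at an unadjusted p under 0.05, against 14.7% of all genes. The authors' deposited table gave the members log2 fold changes of -0.23 to 0.05, of which 57 were below 0 and 0 had an FDR under 0.05 (lowest FDR 0.530). In the authors' test the members Ube2c, Ccnb1 and Cdc25c were at an unadjusted p under 0.05, the lowest being 0.0374 for Ube2c. The shares of all genes under these thresholds in the authors' test were not computed. Sample numbers in the labels' descriptions fall into a range of 2162 to 2169, with 2 WT and 3 nmf219 libraries, and a range of 2199 to 2208, with 3 WT and 2 nmf219. The median was -0.06 within the former and -0.12 within the latter. Limma called 0 members in either, against 1 of 15472 genes in the former and 2 in the latter. The difference between the ranges, tested as an interaction in limma, called 0 members, against 1 gene in all (0.00646%), and 0 members were at an unadjusted p under 0.05, against 0.672% of all genes.

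The module moved as a block between libraries of the same genotype. WT replicate 4 held the highest value of 54 of the 59 members, and WT replicate 5 the lowest value of 42. The members' median deviation from their 10-library mean, on the log2 scale, was -0.05, 0.12, 0.16, 0.31 and -0.24 across WT replicates 1 to 5 and -0.03, -0.15, -0.17, -0.09 and 0.12 across nmf219 replicates 1 to 5. WT replicates 2, 3 and 4 and nmf219 replicate 5 were the libraries above the mean, and these were also the 4 libraries highest in Hbb-y. WT replicate 5 was lowest for both.

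**Figure D2:**
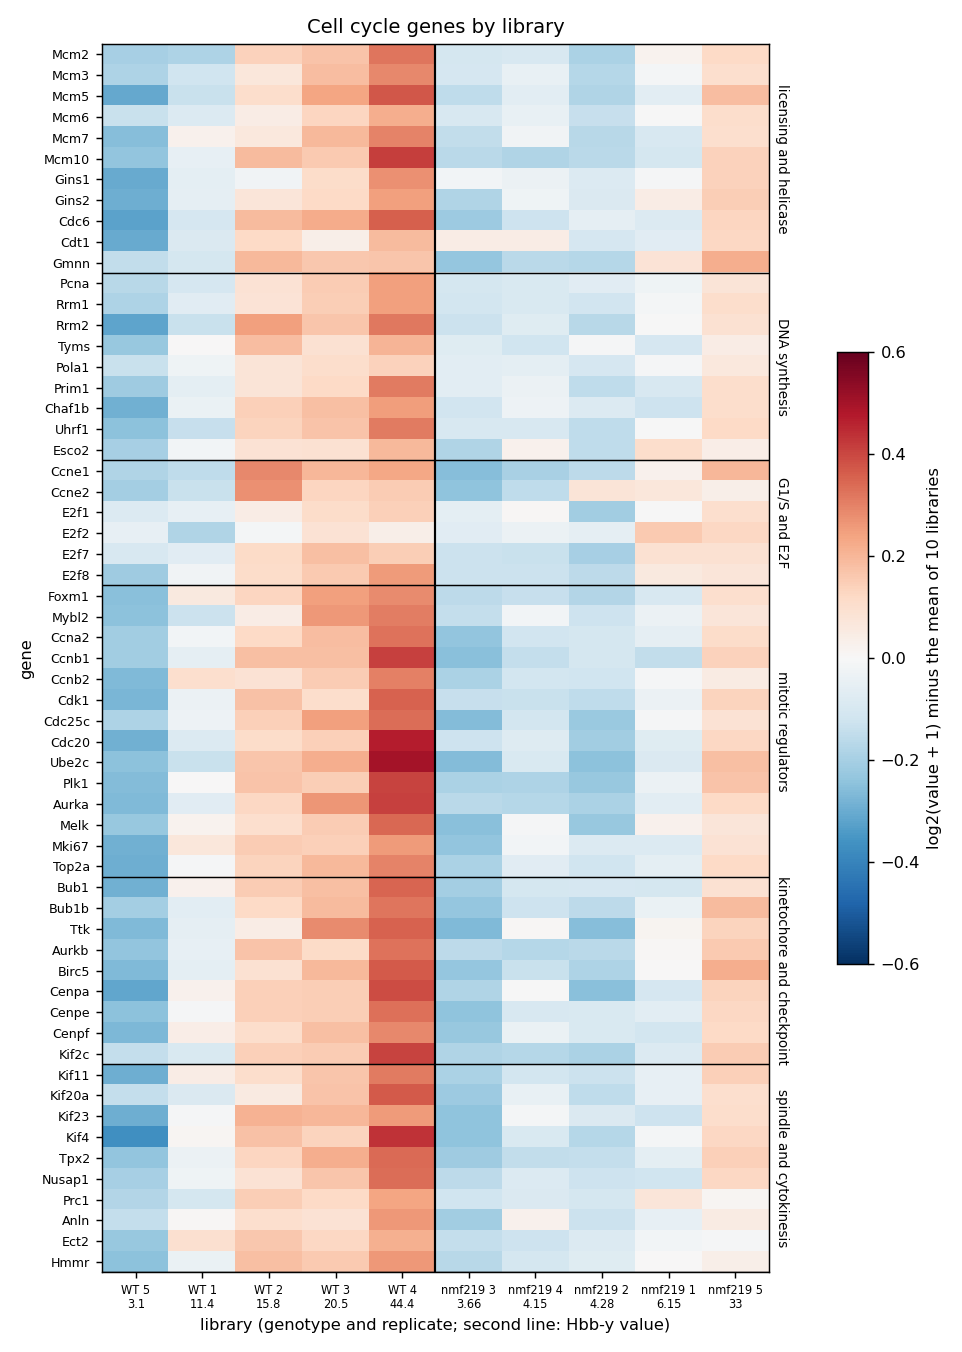
Each row is a gene of the module, grouped by role, and each column a library, ordered within genotype by its Hbb-y value (second line of the axis labels); colour gives log2(value + 1) minus the gene's mean over 10 libraries. WT 4 (Hbb-y 44.4) is red in nearly every row and WT 5 (Hbb-y 3.10) blue in nearly every row, while the mutant libraries other than nmf219 5 are mostly pale blue.

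Higher Hbb-y went with higher RNA of the cell cycle module in all of its roles. With genotype in the fit, the slope on log2(Hbb-y + 1) was positive for all 59 members and passed limma's test in 57 of them (96.6%), against 9.23% of the 15471 genes tested that passed in this direction. The median slope was 0.127 (range 0.0486 to 0.182), against 0.00155 over all genes, in units of log2 change per unit of log2(Hbb-y + 1). Across the whole span of Hbb-y in these libraries the median slope amounts to a fitted 1.36-fold higher level, with a range over members from 1.12-fold to 1.55-fold. Passing members numbered 24 of 26 replication genes, with a median slope of 0.112, and 33 of 33 mitosis genes, with a median slope of 0.136. The difference between these medians was not tested.

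Among the licensing and helicase genes, 11 of 11 passed, with a median slope of 0.123. Mcm5, a subunit of the helicase ring, measured 63.6, 75.4, 82.4, 90.8 and 56.3 across WT replicates 1 to 5 and 66.8, 61.6, 62.8, 66.9 and 79.5 across nmf219 replicates 1 to 5. The 4 libraries rich in Hbb-y held its 4 highest values, with both genotypes among them. Its slope was 0.164 ± 0.0229 (SE; limma adjusted p = 0.00254), the largest among replication genes. The fellow subunits Mcm6, Mcm7 and Mcm2 had slopes of 0.0899, 0.123 and 0.127 (limma adjusted p = 0.00464, 0.00311 and 0.00904). Cdc6, which brings the helicase to origins, had a slope of 0.156 and Mcm10 one of 0.153 (limma adjusted p = 0.00534 and 0.00254).

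The 9 genes of DNA synthesis and its chromatin partners all passed, with a median slope of 0.105. Pcna measured 101, 115, 121, 129 and 96.5 across WT replicates 1 to 5 and 106, 103, 101, 102 and 114 across nmf219 replicates 1 to 5. Here too WT replicate 4 was highest and WT replicate 5 lowest, but the span was narrower than that of Mcm5. The slope was 0.0950 ± 0.0175 (SE; limma adjusted p = 0.00599), which fits a 1.26-fold rise across the span of Hbb-y. Rrm1, a subunit of ribonucleotide reductase, had a slope of 0.105, and Uhrf1, which guides DNA methylation to new strands, one of 0.130 (limma adjusted p = 0.00254 and 0.00445).

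The 6 G1/S cyclins and E2F factors had the lowest median slope of the roles, 0.0850, and 4 of them passed. E2f7 and E2f8, the repressor E2Fs, had slopes of 0.0832 and 0.108 (limma adjusted p = 0.0360 and 0.00902). The members that did not pass were Ccne2, a cyclin E, at 0.0868 ± 0.0362 (SE; limma adjusted p = 0.116), and E2f2, at 0.0486 ± 0.0258 (SE; limma adjusted p = 0.210). Ccne2 was highest in WT replicate 2, at 28.6, and stood at 26.2 in WT replicate 4.

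**Figure D3:**
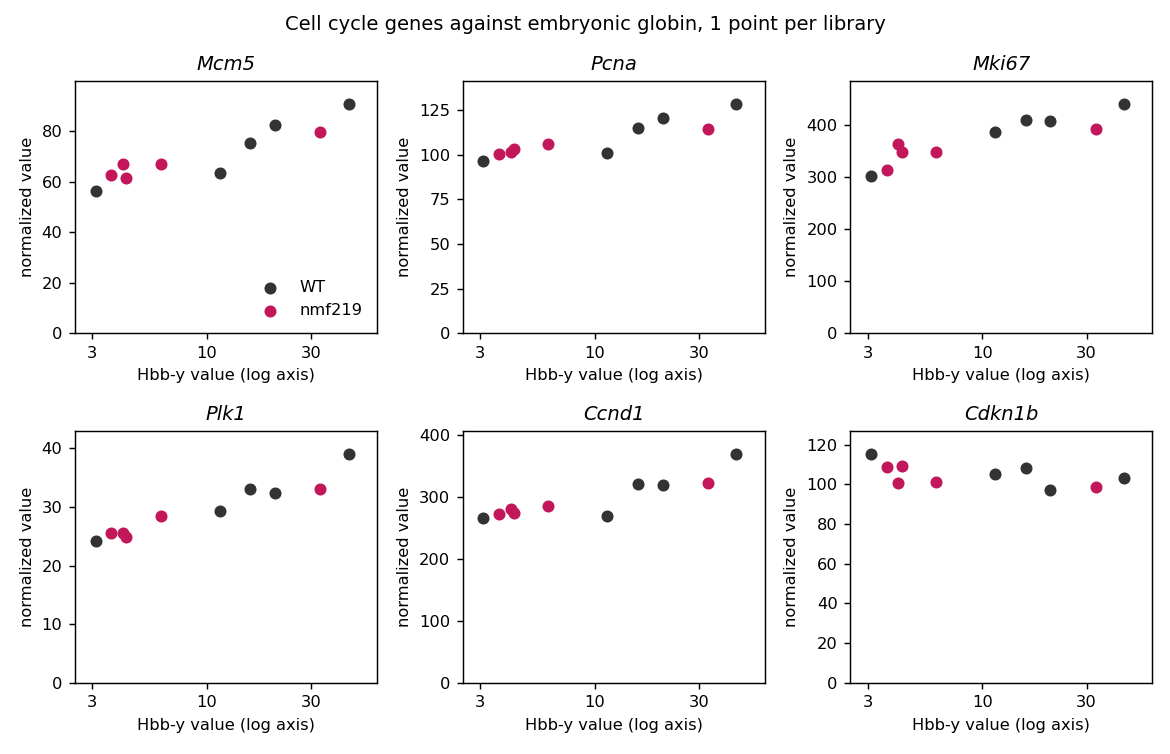
Normalized value (vertical axis, from 0) against Hbb-y value (horizontal axis, logarithmic) for 6 genes, 1 point per library, coloured by genotype. Mcm5, Pcna, Mki67, Plk1 and Ccnd1 are highest at an Hbb-y of 44.4 and lowest or nearly so at 3.10, while Cdkn1b runs between 97.3 and 115 with no such rise.

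The 14 regulators of mitosis all passed, with a median slope of 0.134. Ube2c, the ubiquitin carrier enzyme of the anaphase-promoting complex, measured 41.7, 51.7, 53.6, 65.2 and 38.5 across WT replicates 1 to 5 and 43.2, 38.6, 38.2, 43.0 and 52.2 across nmf219 replicates 1 to 5. WT replicate 4 stood clear of every other library. Its slope of 0.182 ± 0.0259 (SE; limma adjusted p = 0.00254) was the largest of the module; 22.8% of its exon bases lie in exons of the muscle gene Tnnc2, so reads of the pair could not be separated with certainty, and the summed value of the muscle list was lowest, at 216, in WT replicate 4.

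Plk1, the polo kinase that drives entry into mitosis, measured 29.3, 33.0, 32.5, 39.1 and 24.3 across WT replicates 1 to 5 and 28.5, 24.8, 25.5, 25.6 and 33.0 across nmf219 replicates 1 to 5. Its 4 highest libraries were again the 4 richest in Hbb-y (slope 0.162 ± 0.0184, SE; limma adjusted p = 0.00157). Cdc20, the activator of the anaphase-promoting complex, and Aurka, a centrosome kinase, had slopes of 0.159 and 0.157 (limma adjusted p = 0.00339 and 0.00280). Mki67, Top2a and Ccna2, the cyclin of S phase and G2, had slopes of 0.120, 0.136 and 0.130 (limma adjusted p = 0.00675, 0.00248 and 0.00225).

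The kinetochore and checkpoint genes had the highest median slope of the roles, 0.140, and 9 of 9 passed. Birc5, or survivin, of the chromosomal passenger complex, measured 40.0, 44.5, 47.8, 54.1 and 34.5 across WT replicates 1 to 5 and 41.7, 36.5, 35.3, 37.9 and 48.7 across nmf219 replicates 1 to 5. The mutant library rich in Hbb-y lay above the rest of its genotype and above every WT library except replicate 4 (slope 0.167 ± 0.0175, SE; limma adjusted p = 0.00132). Bub1b, a spindle checkpoint protein, Cenpa, the centromeric histone, Cenpe, a kinetochore motor, and Cenpf had slopes of 0.145, 0.153, 0.136 and 0.129 (limma adjusted p = 0.00143, 0.00336, 0.00225 and 0.00254). Of the 10 spindle and cytokinesis genes all passed, with a median of 0.123. Kif4, a chromosome motor, had a slope of 0.171, Tpx2, an activator of Aurora A, one of 0.144, and Kif11, which pushes the spindle poles apart, one of 0.142 (limma adjusted p = 0.00275, 0.00146 and 0.00146). Prc1, which bundles the midzone of the spindle, was lower at 0.0855 (limma adjusted p = 0.0311).

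**Figure D4:**
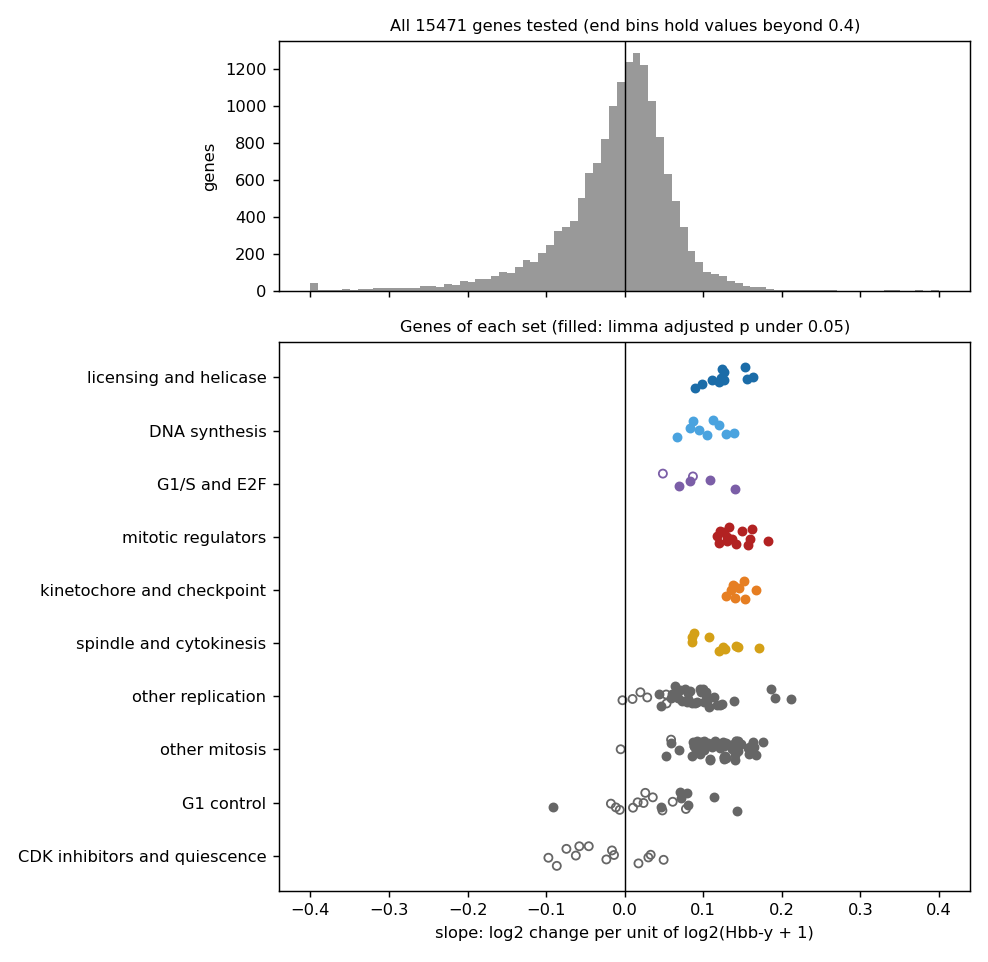
Upper panel, distribution of the slope on log2(Hbb-y + 1) over all 15471 genes tested. Lower panel, the same slope for each gene of the 6 roles and of 4 lists of other pathway genes, filled where limma's adjusted p was under 0.05: nearly all replication and mitosis genes lie to the right of 0, and the CDK inhibitors and quiescence genes lie around it with none filled.

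Other genes of the pathway were taken from 4 lists, whose slopes were not tested against each other. Of 42 further replication genes 36 passed with a positive slope and 0 with a negative one (median 0.0877); the 6 that did not pass were Orc2, Orc3, Orc4 and Orc5, subunits of the origin recognition complex, with Slbp and Dscc1, named here after their values were seen. Of 51 further mitosis genes 48 passed with a positive slope and 0 with a negative one (median 0.125). Among all genes tested 9.23% passed with a positive slope and 9.64% with a negative one. The most abundant of these lists were the maintenance methyltransferase Dnmt1, with a slope of 0.103, Rfc1 of the clamp loader, with 0.0440, the condensin subunit Smc4, with 0.0915, and the centromere chaperone Hjurp, with 0.0527 (limma adjusted p = 0.00312, 0.0239, 0.00472 and 0.0256). Between genotypes limma called 0 genes in any of the 4 lists, against 0.084% of all genes. At an unadjusted p under 0.05 were 1 further replication gene and 1 CDK inhibitor or quiescence gene, against 7.11% of all genes.

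The G1 control genes moved less uniformly. Of 19, 7 passed with a positive slope, against 9.23% of all genes, and 1 with a negative one, against 9.64% (median 0.0460). The negative call is not shown to exceed the background. Ccnd1, cyclin D1, which links growth signals to CDK4, measured 269, 322, 320, 370 and 266 across WT replicates 1 to 5 and 285, 275, 273, 280 and 323 across nmf219 replicates 1 to 5. The 4 libraries rich in Hbb-y held its 4 highest values, and its slope was 0.113 ± 0.0200 (SE; limma adjusted p = 0.00509). Ccnd2, cyclin D2, had a slope of 0.0460 (limma adjusted p = 0.0430). The gene that fell with Hbb-y was Rbl2, whose product p130 is the pocket protein of the resting DREAM complex, with a slope of -0.0918 ± 0.0178 (SE; limma adjusted p = 0.00751); it was named after its value was seen.

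Among the CDK inhibitors and quiescence genes no slope was called. Of 13 listed genes, 0 passed limma's test in either direction, against 18.9% of all genes, and 5 were at an unadjusted p under 0.05, against 34% of all genes. Their median slope was -0.0234. The unadjusted share is near that of all genes, and a list of 13 is too short to read much into 0 calls. The list is not shown to differ from the background. Cdkn1b measured 105, 108, 97.3, 103 and 115 across WT replicates 1 to 5 and 101, 109, 109, 101 and 98.8 across nmf219 replicates 1 to 5. WT replicate 5, the library lowest in the cell cycle module, held its highest value, but the slope of -0.0458 ± 0.0164 (SE) did not pass (limma adjusted p = 0.0751). Cdkn1c, which encodes p57, had a slope of 0.0175, Cdkn1a, which encodes p21, one of -0.0622 and Btg1, an antiproliferative factor, one of 0.0301 (limma adjusted p = 0.541, 0.408 and 0.145).

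At equal Hbb-y little of the genotype difference remained in the fitted values. With Hbb-y and genotype fitted together the members' median log2 difference of nmf219 against WT was -0.01 (range -0.08 to 0.11), against -0.13 with genotype alone, and 35 of 59 were lower. The limma test called 0 members, against 0.213% of all genes, and 0 were at an unadjusted p under 0.05, against 5.2% of all genes. The replication genes had a median of 0.01, with 9 of 26 lower, and the mitosis genes one of -0.02, with 26 of 33 lower. The median turned to 0.06 without nmf219 replicate 5. Since Hbb-y was itself lower on average in nmf219, the genotype and the index share part of their variation, and what part of the difference belongs to either cannot be told apart.

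**Figure D5:**
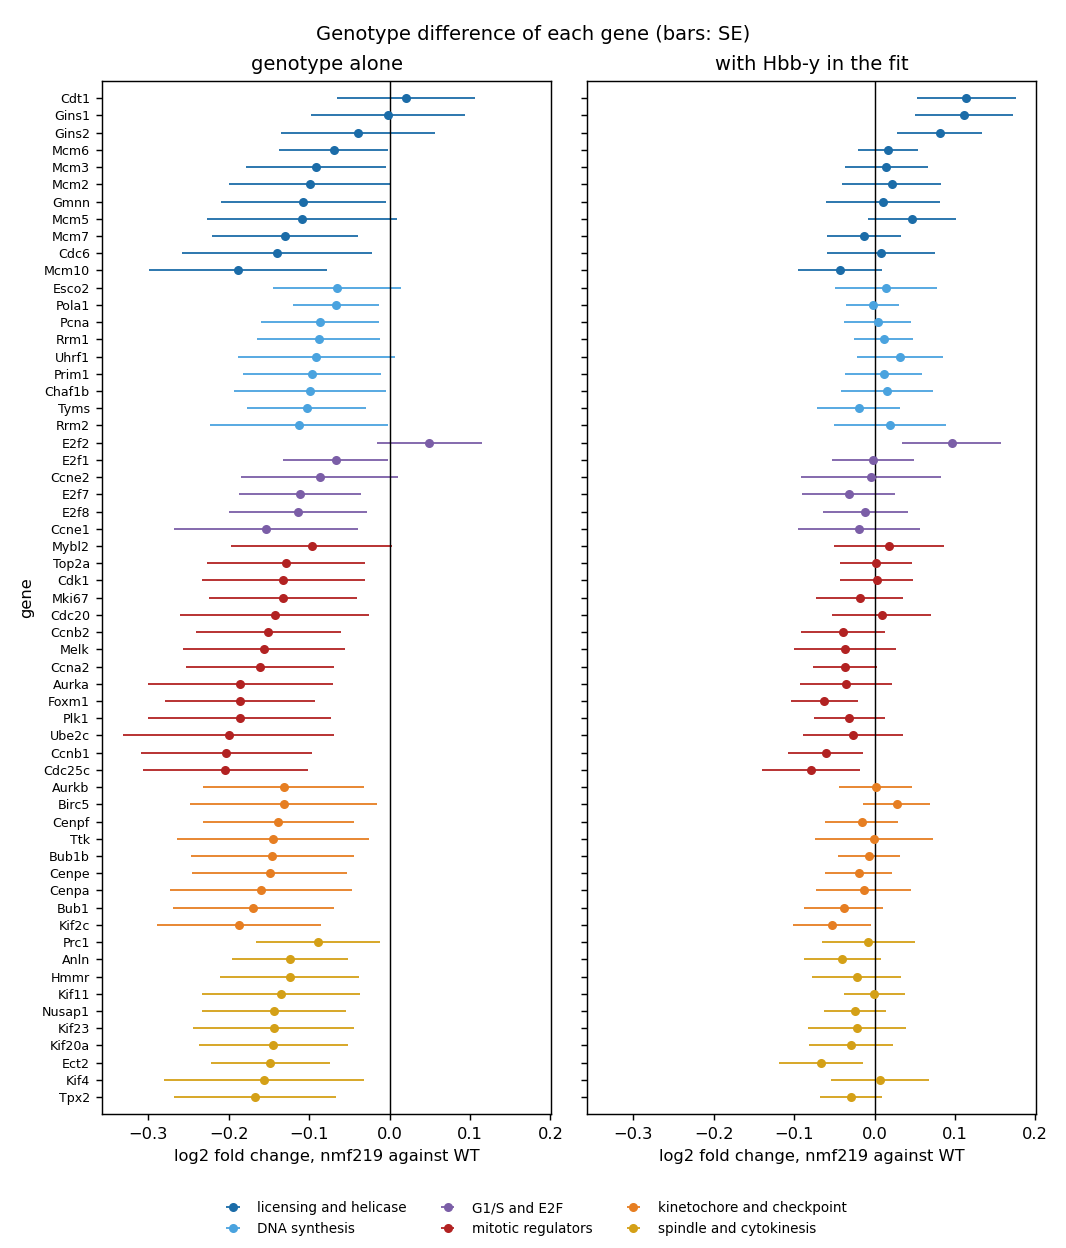
Log2 fold change of nmf219 against WT for each of the 59 genes (points, with SE bars, coloured by role), from the fit with genotype alone (left) and from the fit with Hbb-y added (right). On the left 57 points lie below 0 around a median of -0.13, and on the right the points lie on both sides of 0 around a median of -0.01.

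The mean balance of the phases was slightly different in the genotypes, and this difference was not tested. The mean log2(value + 1) of the replication genes minus that of the mitosis genes averaged -0.58 ± 0.05 in WT, from -0.64 to -0.51, and -0.51 ± 0.03 in nmf219, from -0.55 to -0.47 (SD over 5 libraries). The ranges overlapped, with WT replicate 5 inside the range of the mutants. WT replicate 4, richest in Hbb-y, had the lowest value and nmf219 replicate 3 the highest. The difference of the means, 0.0650, compares with a spread of 0.0406 (SD) between libraries of a genotype, and it ran from 0.0495 to 0.0814 with 1 library left out. No p is given for this score over the members.

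How many members passed on Hbb-y depended on single libraries. Within WT alone 52 of 59 members passed, against 2.35% of all genes, with a median slope of 0.162. Within nmf219 alone 0 members passed, against 1 gene in all (0.00646%), with a median slope of 0.0873, and there nmf219 replicate 5 was the sole library above an Hbb-y of 6.15; 44 members were at an unadjusted p under 0.05 there, against 12.2% of all genes. The difference of the slopes between genotypes, tested as an interaction in limma, had a median of -0.07 over the members (nmf219 minus WT) and passed in 0 of 59 (lowest adjusted p = 0.883), as it did in 0 of the 15471 genes tested (0%). At an unadjusted p under 0.05 there were 27 members, against 5.46% of all genes. Without WT replicate 5, 22 members passed (0.737% of all genes), and without WT replicate 4 they numbered 43 (2.36%). Without both libraries highest in Hbb-y, 30 passed (0.653%) and the median slope was 0.174. Within either range of description numbers 0 members passed with a positive slope, and so did 0 of the 15471 genes tested. The members' median slopes there were 0.185 and 0.101. At an unadjusted p under 0.05 were 55 and 40 members (11.8% and 12.2% of all genes). With Hba-x, the embryonic alpha globin, as the index in place of Hbb-y, 48 passed (5.51%). The ratio of Hbb-y to the adult beta globins gave 55 (9.73%), and a term for the range of description numbers left 45 (3.83%).

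Markers of other cells moved along the same axis. Of 12 macrophage markers listed, 8 fell with Hbb-y and 0 rose, where 9.64% of all genes tested fell; their summed value was 141 to 277 in WT, lowest in WT replicate 4 and highest in WT replicate 5, and 200 to 263 in nmf219. Csf1r and Mrc1, a growth factor receptor and a mannose receptor of macrophages, had slopes of -0.220 and -0.236 (limma adjusted p = 0.00479 and 0.0136). With the macrophage list as a further covariate, 0 members and 1 gene in all passed, 36 members were at an unadjusted p under 0.05 (9.12% of all genes), and the members' median slope was 0.0857. Of 10 inner ear markers 5 fell and 0 rose, with a median slope of -0.0442 over the list and 3 uncalled slopes above 0. Among those that fell were Coch, made by fibrocytes of the ear, with a slope of -0.396, and Otor, a secreted protein of the ear, with one of -0.283 (limma adjusted p = 0.00288 and 0.00143). Csf1r, Mrc1, Coch and Otor were not picked by the rule for named genes, and Mrc1 and Coch had the lowest slopes of their lists. The part of ear tissue in the slopes of the cell cycle genes was not tested.

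Red cell markers were present as well. Of 12 erythroid genes listed, 1 fell with Hbb-y and 0 rose, against 9.64% and 9.23% of all genes tested. The list is not shown to differ from the background. The summed value of the erythroid list was 178 to 260 in WT and 215 to 273 in nmf219, lowest in WT replicate 4, where the cell cycle module was highest. The adult beta globin Hbb-bs fell with Hbb-y, with a slope of -0.315 (limma adjusted p = 0.0381). With the erythroid list as a covariate 57 members passed (7.29% of all genes), and with the muscle list 56 passed (8.4%). No listed marker of these lists, or of the brain and cartilage lists, was at 0 in any library. Of 17 muscle and 8 brain markers 0 passed limma's test on Hbb-y in either direction, against 18.9% of all genes. At an unadjusted p under 0.05 were 0 and 2 of them, against 34% of all genes. Of 9 cartilage and bone markers 2 fell, against 9.64% of all genes tested.

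Reads could also be shared with neighbouring genes. Of the 59 members, 16 have exon bases in common with another gene in GENCODE M21 (GRCm38), and 3 have more than 20% of them, Gins2 with Gse1 (67.3%), Kif20a with Cdc23 (29.3%) and Ube2c with Tnnc2. The strand setting of the counting is not given in the sources used here, so these 3 are uncertain.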

How the data were processed

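Whole inner ears of mouse embryos were sequenced in 10 libraries, made from 1 µg of total RNA taken up in TRIzol, per the labels' protocols. Groups came from the sample titles. Which aligner, counter, strand setting and build were used is not given in the sources used here. The deposited table holds 1 normalized signal per gene and library (headed counts_cpm, per the file headers). The deposited signal columns sum to 990643 to 1009217, and each value is a whole multiple of 1 step per library (100% within 0.01 read), from which depth was computed. The authors' log2 fold change, signed fold change score, p-value and FDR are in the table too, per the file headers.

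The values are not counts, so the main test was limma (3.58.1, trend, R 4.3.3) on log2(value + 1). Count tests were planned as alternatives only. Fold changes on this log2 scale understate low genes. The genotype fit had genotype alone. The slope fit had genotype and log2(Hbb-y + 1), over all genes but Hbb-y, and it also gave the genotype difference at equal Hbb-y. Hbb-y was used as a continuous covariate, so that no library was grouped by a measured value. Exon lengths and overlaps came from GENCODE M21, where all 59 members were found by identifier and 51 had the same start and end as in the table. Promoters came from RefSeq. Scripts were tested on simulated data.

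Members and lists were chosen with earlier results of these data known. Named genes were the 3 most abundant members per role, Mki67, Top2a and Pcna, the 10 further passing members with the largest coefficient, and from the other lists Ccnd1, Cdkn1a, Cdkn1b, Cdkn1c and the 2 most abundant genes per list, with exceptions stated. Both genotypes carry numbers 1 to 5, which the labels do not tie to shared litters or days. Alternatives were other scalings, pseudocounts of 0.1 and 0.5, a filter at a mean value of 1, blocks, covariates, and leaving out each library.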

Additional observations from a re-analysis of the deposited data

Results flagged for a closer look

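Of 84 groups of 5 samples checked over the named genes and index genes, 4 had a library apart from the rest of its genotype, where chance gives about 1 group in 20. The count is near that share and is not shown to exceed it. All 4 were nmf219 replicate 5 as the highest of the mutants. Its gap to the next library, as a share of the whole range of the group, was 0.915 for Hbb-y (value 33.0), 0.870 for Hba-x (12.5), 0.790 for Mcm10 (17.6) and 0.761 for Ccnd1 (323).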

How the results depend on the processing

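The genotype test called 0 members under every alternative run. It called 13 genes in all, and 2 with the replicate block, 4 with the muscle covariate, 2 with Xist (unbalanced between the genotypes), 33 with Hbb-y, 1 and 2 within the lower and upper range of description numbers, and 7 to 18 with 1 library left out. Genes with a positive Hbb-y slope numbered 1428, and 527 with the replicate block, 593 with the description number block, 0 within either range, 364 within WT, 1 within nmf219, and 114 to 1382 with 1 library left out; added after the data were seen, they were 852 with Hba-x, 1 with the macrophage covariate and 101 without the 2 libraries highest in Hbb-y. Members called numbered 57, and 0 within either range or within nmf219, 0 with the macrophage covariate, 30 without those 2 libraries and 22 to 56 with 1 library left out. Their median slope of 0.127 became 0.185 and 0.101 within the ranges, 0.162 within WT, 0.0873 within nmf219, 0.0857 with the macrophage covariate, 0.174 without those 2 libraries and 0.105 to 0.163 with 1 left out; per unit of other indices it was 0.0893 for Hbb-y over adult beta globins and 0.206 for Hba-x. The causes were not tested.

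Same-numbered samples deviated with correlations of -0.468 to 0.130 and none matched its own number best. No pairing by number was seen, but so few samples cannot settle whether equal numbers share a litter or day. With the replicate block, 49 members had a positive call on Hbb-y and the median genotype difference stayed at -0.13.

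Uncalled genotype differences that changed sign were, with the muscle covariate, Cdkn1b (0.0213), Cdkn1a (-0.171) and Hjurp (0.0114); with Hbb-y, Mcm6 (0.0162), Mcm2 (0.0213), Rrm1 (0.0114), Pcna (0.00379), Uhrf1 (0.0321), Top2a (0.00132), Ccnd1 (0.00940) and Hjurp (0.0252); within the upper range, Cdkn1c (-0.00933); and with 1 library left out, Cdkn1b (-0.0568 to 0.00461; above 0 without WT replicate 5) and Btg1 (-0.00878 to 0.0367; below 0 without WT replicate 3, at -0.00724, or 5). The uncalled slope of Cdkn1a was 0.0835 without the 2 libraries highest in Hbb-y. Of the other values for named genes, 1559 kept direction and side of the threshold, 207 slopes no longer passed and 2 newly passed. The planned count tests and limma-voom on recovered reads were not run. Values of all members lie far above 3 reads.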
